A study of Homo sapiens with 6 samples.

Results

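Hippo pathway and YAP target genes were examined in bladder cancer cells depleted of the long non-coding RNA *LEADR*. The 10 genes were chosen by name from the 57905 genes in the deposited tables: *YAP1*, *WWTR1*, *TEAD1*, *TEAD4*, *LATS1*, *LATS2*, *AMOTL2*, *CYR61* (now *CCN1*), *CTGF* (now *CCN2*) and *ANKRD1*. All 10 were found, and 8 had enough counts to be tested. The Hippo pathway restrains growth by keeping a pair of transcriptional coactivators out of the nucleus. The upstream kinases MST1 and MST2 (*STK4* and *STK3*), with the adaptors SAV1 and MOB1, activate LATS1 and LATS2, which phosphorylate YAP (*YAP1*) and TAZ (*WWTR1*) so that these are held in the cytoplasm or degraded. When the kinases are inactive, YAP and TAZ enter the nucleus, bind the TEAD DNA-binding proteins and switch on genes such as *CYR61*, *CTGF*, *ANKRD1*, *AMOTL2* and *LATS2*, the last of which acts back on the pathway. In epithelia, including urothelium, the pathway reads cell contact, tension and polarity.

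They were measured by poly(A) RNA sequencing of RT4, an established human bladder cancer line of epithelial appearance that models non-muscle invasive disease. Cells labelled wild type were transfected for 48 h with 100 pmol of a scramble control siRNA or of a single siRNA against *LEADR*, a spliced non-coding transcript of *MIR205HG*. Each group holds 3 libraries, named here Scramble 1 to 3 and LEADR-KD 1 to 3. Both groups went through the same lipid transfection, and with 1 siRNA sequence the effects of the target and of that sequence cannot be told apart.

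Library totals ranged from 15706033 to 18960822 counts. Mitochondrial genes took 11.9% of the counts in Scramble 1 and 10.8% in LEADR-KD 1, against 3.06% to 5.73% in the other 4 libraries, so that the members were also tested without these 2 libraries. *MIR205HG* fell from 22.7 ± 6.64 to 8.13 ± 3.08 CPM (SD, n = 3; CPM is each count relative to the library's TMM-scaled total), and its highest LEADR-KD library (11.6 CPM) lay below its lowest Scramble library (17.3 CPM). This was a log2 fold change of -1.47 (standard error 0.26, edgeR adjusted p = 0.00180), which spans the gene and not the *LEADR* isoform alone. The 16 urothelial markers, 14 of them tested, had a summed level of 7309 to 8074 CPM in Scramble and 8690 to 9309 CPM in LEADR-KD. *CDH1*, *UPK1B* and *KRT18* rose and *FOXA1* fell, whereas *KRT5* and *KRT20* stayed at or below 1.12 CPM. The 8 fibroblast markers summed to 18.4 to 32.1 CPM, with *COL1A2*, *DCN*, *THY1*, *PDGFRA* and *PDGFRB* at 0 in every library. The 5 endothelial markers summed to 7.28 to 10.4 CPM in Scramble and 2.89 to 4.68 CPM in LEADR-KD, most of it *VWF*, which fell, with *KDR* and *TEK* at 0. The leukocyte markers *CD3E* and *CD68* were at 0 in every library. The part of these marker levels in the results below was not tested.

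The named target genes differed widely in level, and promoter sequence is shown for *CTGF*, *ANKRD1* and *AMOTL2* so that TEAD elements can be set beside those levels, as the 250 bases before the start site in RefSeq (GRCh38.p14, a later build than the files' hg19), 5′ to 3′ on the strand of the gene. Capitals mark GGAATG, the core of the element that TEAD proteins bind, searched on both strands (GGAATG or CATTCC).
CTGF, minus strand, chr6:131951373-131951622: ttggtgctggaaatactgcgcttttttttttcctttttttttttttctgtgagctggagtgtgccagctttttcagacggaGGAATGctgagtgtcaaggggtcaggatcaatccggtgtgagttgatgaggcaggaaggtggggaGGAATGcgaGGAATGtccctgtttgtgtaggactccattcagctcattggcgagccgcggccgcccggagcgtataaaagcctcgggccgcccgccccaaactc
ANKRD1, minus strand, chr10:90921088-90921337: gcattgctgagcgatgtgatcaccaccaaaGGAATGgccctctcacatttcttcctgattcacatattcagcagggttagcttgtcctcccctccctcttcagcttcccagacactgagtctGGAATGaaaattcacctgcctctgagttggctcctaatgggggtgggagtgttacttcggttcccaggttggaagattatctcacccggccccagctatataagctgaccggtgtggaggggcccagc
AMOTL2, minus strand, chr3:134375418-134375667: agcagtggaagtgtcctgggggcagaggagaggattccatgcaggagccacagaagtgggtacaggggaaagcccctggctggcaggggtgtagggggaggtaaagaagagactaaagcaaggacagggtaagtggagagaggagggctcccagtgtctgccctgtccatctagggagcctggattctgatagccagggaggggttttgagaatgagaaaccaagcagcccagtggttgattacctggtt
The *CTGF* window held 3 copies, which begin 169, 104 and 95 bases before the start, and the *ANKRD1* window held 2, at 220 and 128 bases. The *AMOTL2* window held none, and that of *LATS2*, not shown, held none either. Of 27305 promoters 11.9% held at least 1. TGANTCA, the AP-1 motif, was in 6.6% of these promoters and once in the *ANKRD1* window. *CYR61* was not among the promoter sequences used.

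In *LEADR*-depleted cells 4 of the 8 tested members rose, 1 fell and 3 did not pass. *WWTR1*, *CYR61*, *TEAD4* and *AMOTL2* were higher and *LATS1* was lower (edgeR quasi-likelihood test, adjusted p under 0.05 over all 14178 tested genes). Over all tested genes 12.2% were higher and 12.1% lower at that threshold. The median log2 fold change of the 8 tested members was 0.33, beside -0.01 for all tested genes. The members were chosen with earlier results of these data known, so that their contrast with all genes is descriptive only. All 5 calls also stood without the 2 libraries of high mitochondrial share. In the same test *SAV1*, *STK4*, *WWC2*, *CUL1* and *ASAP1* of the lists below did not pass (adjusted p from 0.0614 to 0.244, edgeR). The groups did not overlap for the 5 called members, and among all tested genes 19.9% lay wholly above and 19.9% wholly below. The study's methods call the samples biological replicates without saying how they were grown, and the p values rest on the spread among them.

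**Figure D1:**
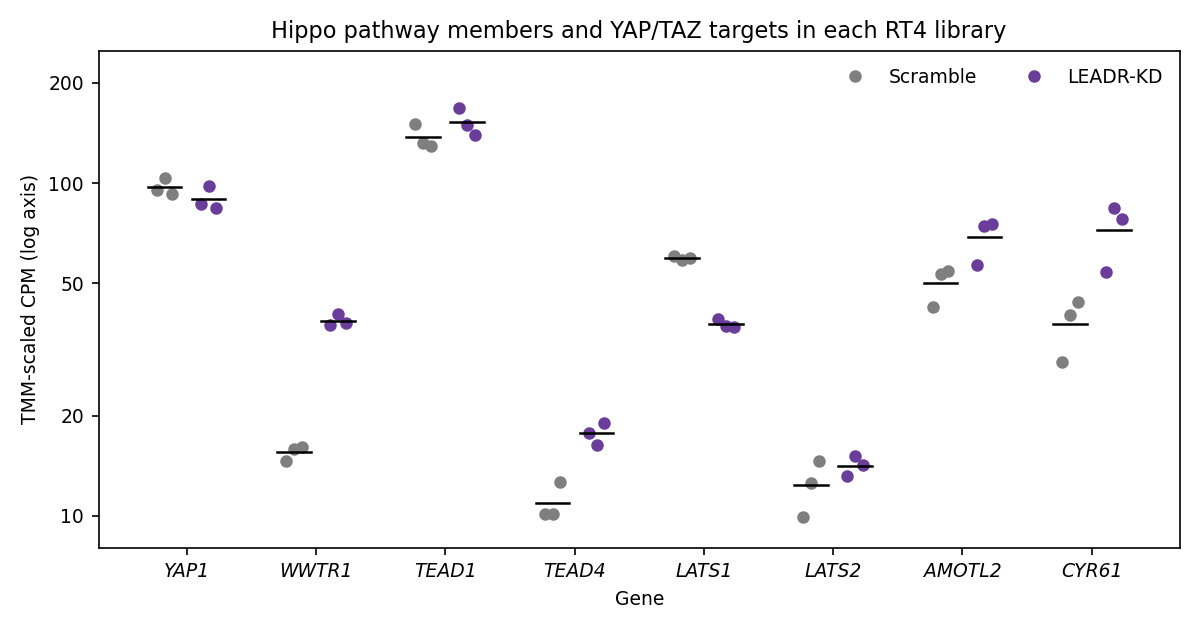
TMM-scaled CPM (log axis) of the 8 tested members in each library, drawn grey for Scramble and purple for LEADR-KD (n = 3 each), with the group means as black bars. The groups are separate for *WWTR1*, *TEAD4*, *LATS1*, *AMOTL2* and *CYR61* and overlap for *YAP1*, *TEAD1* and *LATS2*.

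The largest change among the 8 tested members was in the coactivator gene *WWTR1* (ENSG00000018408, chr3:149235022-149454501, minus strand, hg19), which encodes TAZ. Its counts, in the order of libraries 1 to 3 used throughout, were 248, 309 and 270 for Scramble against 598, 733 and 668 for LEADR-KD. Scaled by library, these were 14.6, 15.9 and 16.1 CPM against 37.5, 40.3 and 37.8 CPM. The libraries of each group lay close together, and the lowest LEADR-KD library was more than double the highest Scramble library. The log2 fold change was 1.31 (standard error 0.11, adjusted p = 1.05e-05 from edgeR), a fold of 2.48 with a 95% interval of 2.11 to 2.92. Only 2.46% of tested genes changed by as much in either direction. The antisense gene *WWTR1-AS1*, which overlaps it, had 1 to 4 counts per library in both groups.

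The paralog *YAP1* (chr11:101981192-102104154, plus strand), which encodes the other coactivator, was at 95.1, 103 and 92.9 CPM in Scramble and 86.8, 98.0 and 83.9 CPM in LEADR-KD. The groups overlapped. *YAP1* did not pass (log2 fold change -0.12, standard error 0.09, edgeR adjusted p = 0.383), with a 95% interval of 0.805 to 1.06 for the fold.

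Per unit of length, *WWTR1* was the minor coactivator in both groups. In the authors' FPKM values (counts scaled by gene length and library), *WWTR1* made up 10.3%, 10.3% and 11.5% of the sum of both genes in Scramble and 24.4%, 23.5% and 25.2% in LEADR-KD. The sum itself was 17.1 ± 0.920 FPKM in Scramble and 18.8 ± 1.31 FPKM in LEADR-KD (SD, n = 3), and its groups overlapped. The ratio of *WWTR1* to *YAP1*, which does not depend on how libraries are scaled, was 0.115, 0.115 and 0.130 against 0.323, 0.308 and 0.338. It was 2.70-fold higher in LEADR-KD (exact permutation test, two-sided, p = 0.1, and 0.1 when adjusted over 3 ratios; 0.1 is the smallest p that 3 against 3 libraries allow).

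Of the TEAD genes, which encode the DNA-binding partners, *TEAD4* (chr12:3068496-3149839, plus strand) rose. It was at 10.1, 10.1 and 12.6 CPM in Scramble and 17.7, 16.3 and 19.0 CPM in LEADR-KD, so that every LEADR-KD library lay above every Scramble library. The log2 fold change was 0.69 (standard error 0.14, adjusted p = 0.00449 from edgeR). *TEAD1* (chr11:12695969-12966298, plus strand) was at 151, 132 and 129 CPM against 168, 150 and 139 CPM. Its groups overlapped, and it did not pass (log2 fold change 0.15, standard error 0.09, edgeR adjusted p = 0.286), with a 95% interval of 0.961 to 1.28 for the fold.

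The other two genes of the family are given to complete it. *TEAD3* fell by 0.28 on the log2 scale, from 76.3 ± 5.17 to 62.7 ± 0.472 CPM (edgeR adjusted p = 0.0312), a call that did not stand without Scramble 2 (0.0553), Scramble 3 (0.131), LEADR-KD 1 (0.0628), LEADR-KD 2 (0.0895) or LEADR-KD 3 (0.0709). *TEAD2* had 1 count in Scramble 2, 1 in LEADR-KD 1 and 0 elsewhere. By FPKM, *TEAD4* made up 10.5% to 12.5% of the family in Scramble and 17.3% to 19.9% in LEADR-KD, and *TEAD3* 56.7% to 60.7% and 46.7% to 49.5%. *TEAD1* overlapped between the groups, at 26.8% to 32.8% and 30.7% to 35.4%. The family sum was 42.2 ± 1.79 FPKM and 42.4 ± 1.27 FPKM (SD, n = 3). The ratio of *TEAD4* to *TEAD1* was 0.320, 0.365 and 0.465 in Scramble against 0.503, 0.519 and 0.649 in LEADR-KD, 1.46-fold higher with the same exact permutation p = 0.1.

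The kinase gene *LATS1* (ENSG00000131023, chr6:149979289-150039392, minus strand) was the member that fell. Its 1024, 1140 and 996 counts in Scramble and 622, 678 and 650 counts in LEADR-KD scaled to 60.3, 58.5 and 59.5 CPM against 39.0, 37.3 and 36.8 CPM. The spread within each group was small beside the gap between them. The log2 fold change was -0.66 (standard error 0.09, adjusted p = 2.81e-04 from edgeR), a fold of 0.634 with a 95% interval of 0.556 to 0.723.

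The paralog *LATS2* (chr13:21547171-21635686, minus strand), which is both a LATS kinase gene and a YAP target, was at 9.89, 12.5 and 14.6 CPM in Scramble and 13.2, 15.1 and 14.2 CPM in LEADR-KD. Scramble 3 lay within the LEADR-KD range. *LATS2* did not pass (log2 fold change 0.20, standard error 0.16, edgeR adjusted p = 0.410), with a 95% interval of 0.901 to 1.46 for the fold. The sum of both kinase genes was 8.62, 8.88 and 9.31 FPKM against 6.81, 6.90 and 6.72 FPKM, without overlap. *LATS1* gave 80.2%, 75.6% and 73.0% of that sum in Scramble and 66.3%, 62.2% and 63.2% in LEADR-KD. The ratio of *LATS2* to *LATS1* was 1.83-fold higher in LEADR-KD, again with the exact permutation p = 0.1.

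**Figure D2:**
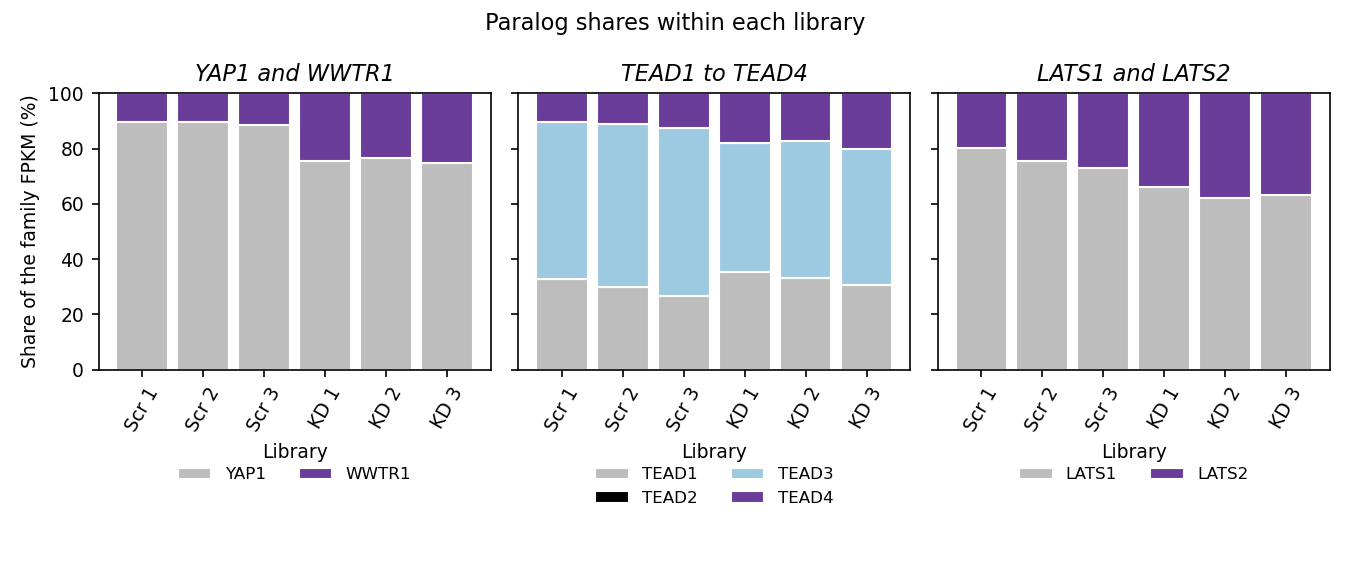
Share (%) of each gene in the summed FPKM of its family, in each Scramble (Scr) and LEADR-KD (KD) library. *WWTR1* takes 10.3% to 11.5% of the coactivator sum in Scramble and 23.5% to 25.2% in LEADR-KD, and *TEAD2* is too low to be seen.

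Among the target genes, *CYR61* (ENSG00000142871, chr1:86046444-86049645, plus strand), which encodes a secreted matricellular protein, rose. It was at 29.0, 40.1 and 43.9 CPM in Scramble and 53.9, 84.4 and 78.2 CPM in LEADR-KD. Both groups spread widely, with the first library the lowest in each, and they did not overlap. The log2 fold change was 0.94 (standard error 0.18, adjusted p = 0.00275 from edgeR), a fold of 1.91 with a 95% interval of 1.46 to 2.50.

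*AMOTL2* (chr3:134074716-134094321, minus strand), whose angiomotin family product binds and retains YAP, was at 42.5, 53.4 and 54.3 CPM in Scramble and 56.6, 74.1 and 75.5 CPM in LEADR-KD. LEADR-KD 1 lay only just above Scramble 3. *AMOTL2* rose by 0.46 on the log2 scale (standard error 0.13, edgeR adjusted p = 0.0249). This call did not stand without Scramble 1 (adjusted p = 0.0829 from edgeR), LEADR-KD 2 (0.105) or LEADR-KD 3 (0.0910). It stood at 0.00404 without both libraries of high mitochondrial share.

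*CTGF* (chr6:132269316-132272513, minus strand), a close relative of *CYR61* and the target gene with 3 GGAATG copies in its promoter window, had no count in Scramble and a single one in LEADR-KD (0, 0 and 1). Observing 0 counts allows up to 3 counts, which is 0.154 to 0.188 CPM in these libraries. No difference was detectable at this depth. *ANKRD1* (chr10:92671853-92681033, minus strand), which encodes a nuclear ankyrin repeat protein of muscle and stressed cells and whose window held 2 copies, had 0, 1 and 0 counts in Scramble against 0, 3 and 6 in LEADR-KD. The 9 counts of the LEADR-KD group came from only 2 of its libraries. The ratio of the summed counts, scaled by library, was 9.25 with a counting interval of 1.28 to 405 (exact, 95%), which covers counting error only. Neither gene passed when all genes were tested without a filter on low counts (adjusted p = 0.625 for *CTGF* and 0.384 for *ANKRD1* from edgeR).

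Ordered by FPKM in Scramble, *YAP1* (15.3) stood beside *CYR61* (15.2), followed by *TEAD1* (12.6), *AMOTL2* (8.29), *LATS1* (6.81), *TEAD4* (4.77), *LATS2* (2.13) and *WWTR1* (1.83). In that order *YAP1* and *CYR61*, *CYR61* and *TEAD1*, and *LATS2* and *WWTR1* overlapped between libraries, while the other neighbours did not. In LEADR-KD the order by FPKM was *CYR61* (29.3), *YAP1* (14.2), *TEAD1* (14.0), *AMOTL2* (11.5), *TEAD4* (7.77), *WWTR1* (4.57), *LATS1* (4.35) and *LATS2* (2.46). There *YAP1* overlapped *TEAD1*, and *WWTR1* overlapped *LATS1*. *WWTR1* thus stood level with *LATS2* in Scramble and level with *LATS1* in LEADR-KD. Over all 6 libraries the mean FPKM of *CYR61* lay above 84.6% of tested genes and that of *LATS2* above 32.8%.

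The list of the kinase cassette and its upstream kinases, which includes adaptors and LATS relatives, moved in both directions. Of 15 tested genes (17 listed), 3 rose, 4 fell and 8 did not pass (median log2 fold change -0.18). At the same threshold 12.2% of all tested genes were higher and 12.1% lower. *STK3*, the gene of the MST2 kinase, was at 24.3, 30.8 and 23.3 CPM in Scramble and 14.1, 13.5 and 13.9 CPM in LEADR-KD, and its groups lay far apart. Its log2 fold change was -0.92 (adjusted p = 5.67e-04 from edgeR). *MOB1B*, which encodes a LATS-binding adaptor, fell by 0.75 on the log2 scale and the upstream kinase gene *TAOK3* fell by 0.65. The scaffold gene *SAV1*, named after its value was seen, fell by 0.32 (adjusted p = 0.0456 from edgeR) and did not pass without any 1 of Scramble 1 or 2 or LEADR-KD 1, 2 or 3 (0.0698 to 0.185).

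In the same list *MAP4K5*, a kinase gene of the family that can phosphorylate LATS, rose by 0.54 and *STK38L*, a relative of the LATS kinases, rose by 0.52. *STK4*, the gene of the MST1 kinase, was at 55.0 ± 1.61 and 66.7 ± 4.72 CPM (SD, n = 3), a log2 fold change of 0.28 (adjusted p = 0.0407 from edgeR). Only the fit without LEADR-KD 3 kept that call among the 6 that left out 1 library (0.0579 to 0.133 in the others). *MOB1A*, the paralog of *MOB1B*, chosen after its value was seen, had a log2 fold change of 0.05 and did not pass (adjusted p = 0.761 from edgeR). The difference between these paralogs was not tested.

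Of 23 tested (24 listed) scaffold, junction and polarity regulators, 4 rose, 1 fell and 18 did not pass (median log2 fold change 0.08). Beside these counts, 12.2% of all tested genes were higher and 12.1% lower. *MPP5*, which encodes the Crumbs complex scaffold PALS1, rose by 0.68 on the log2 scale, from 53.5 ± 3.37 to 85.7 ± 2.33 CPM (SD, n = 3; edgeR adjusted p = 2.05e-04). All 3 WWC genes, whose products activate LATS, were higher, with log2 fold changes of 0.51 for *WWC3*, 0.43 for *WWC2* and 0.33 for *WWC1*, the last named after its value was seen. *WWC2* did not pass once a library was left out, be it Scramble 1 (adjusted p = 0.111 from edgeR), Scramble 2 (0.0823), LEADR-KD 2 (0.136) or LEADR-KD 3 (0.0710), and *WWC1* did not pass without LEADR-KD 2 (0.0628). *PTPN14*, a YAP-binding phosphatase gene that also counts among the targets, fell from 58.6 ± 6.46 to 38.1 ± 2.98 CPM (log2 fold change -0.62). Without LEADR-KD 2 the list counted 2 higher and 2 lower. *NF2*, the gene of the upstream scaffold merlin, chosen after its value was seen, was at 63.8 and 67.5 CPM (adjusted p = 0.534 from edgeR).

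Of 16 tested inhibitors of the cassette, 0 rose, 4 fell and 12 did not pass (edgeR, median log2 fold change -0.03). These are LIM adaptors and subunits of the STRIPAK phosphatase complex. Among all tested genes, 12.2% were higher and 12.1% lower. The number higher in the list was also 0 at an unadjusted edgeR p under 0.05, by DESeq2 and by limma. *SIKE1*, the gene of a STRIPAK subunit, was at 44.1, 49.9 and 52.4 CPM in Scramble and 25.0, 22.1 and 25.4 CPM in LEADR-KD, with a wide gap between the groups. Its log2 fold change was -1.01 (adjusted p = 7.09e-05 from edgeR). *CTTNBP2NL* and *SLMAP*, which encode further STRIPAK subunits, fell by 0.52 and 0.39 on the log2 scale, and the LIM adaptor gene *AJUBA*, named after its value was seen, fell by 0.28. *CTTNBP2NL* did not pass without Scramble 2 (adjusted p = 0.0661 from edgeR), LEADR-KD 2 (0.0584) or LEADR-KD 3 (0.0642), and *AJUBA* passed only without Scramble 1 among the 6 fits that left out 1 library (0.0686 to 0.154 in the others). With Scramble 2, LEADR-KD 2 or LEADR-KD 3 left out, the list counted 2 lower.

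Of 17 tested genes (19 listed) that partner, retain or turn over YAP and TAZ, 3 rose, 4 fell and 10 did not pass (median log2 fold change -0.03). The shares of all tested genes were 12.2% higher and 12.1% lower. *BTRC*, which encodes the F-box protein that recognises phosphorylated YAP and TAZ for degradation, was at 28.4, 23.6 and 20.8 CPM in Scramble and 9.15, 7.21 and 10.1 CPM in LEADR-KD. No library of either group came near the other, and the log2 fold change was -1.46 (standard error 0.17, adjusted p = 9.56e-05 from edgeR). Its paralog *FBXW11*, chosen after its value was seen, was at 66.4 and 71.5 CPM (adjusted p = 0.435 from edgeR). *CUL1*, the scaffold gene of the same ligase, rose by 0.32, and *VGLL1*, whose product competes with YAP for TEAD, rose by 0.38. *CUL1* did not pass once a library was left out, be it Scramble 1 (adjusted p = 0.0709 from edgeR), Scramble 3 (0.0513), LEADR-KD 2 (0.0648) or LEADR-KD 3 (0.0649). *VGLL1* did not pass once a library was left out, be it Scramble 1 (adjusted p = 0.0559 from edgeR), Scramble 2 (0.0647), LEADR-KD 2 (0.0543) or LEADR-KD 3 (0.0683).

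The 14-3-3 genes, whose products hold phosphorylated YAP in the cytoplasm, split: *YWHAG* and *YWHAZ* fell by 0.48 and 0.37 on the log2 scale, *YWHAH* rose by 0.38, and the other 4 of the 7 in the list, *SFN* included, did not pass. *YWHAZ* did not pass without Scramble 2 (adjusted p = 0.0707 from edgeR) or LEADR-KD 2 (0.0678). The number higher in this list was 1 with Scramble 1, LEADR-KD 2 or LEADR-KD 3 left out, and 0 with scaling by library totals alone. The number lower was 2 without Scramble 2 or LEADR-KD 2.

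None of the tested genes in a list of other YAP and TAZ targets rose, where 12.2% of all tested genes were higher and 12.1% lower. The listed genes *AXL*, *NUAK2*, *TGFB2* and *RBMS3* had too few counts to be tested. Of 13 tested (17 listed), 0 rose, 5 fell and 8 did not pass (median log2 fold change -0.30; edgeR, with 0 higher also at an unadjusted p under 0.05 and 0 higher by DESeq2 and by limma). *NT5E*, which encodes the ectonucleotidase CD73, was at 24.5, 31.1 and 20.1 CPM in Scramble and 9.90, 8.42 and 5.27 CPM in LEADR-KD. No LEADR-KD library reached the lowest Scramble library, and the log2 fold change was -1.69 (standard error 0.22, adjusted p = 2.79e-04 from edgeR). *F3*, the tissue factor gene, fell from 8.98 ± 1.49 to 3.56 ± 0.776 CPM (log2 fold change -1.33), and *CRIM1*, which encodes a membrane protein that binds growth factors, from 66.4 ± 1.88 to 41.5 ± 1.90 CPM (-0.68; SD, n = 3). *PTPN14* was described above, and *ASAP1*, named after its value was seen, fell by 0.30 (adjusted p = 0.0499 from edgeR) and did not pass once a library was left out, be it Scramble 1 (0.148), Scramble 3 (0.113), LEADR-KD 1 (0.139) or LEADR-KD 3 (0.123). *IGFBP3* and *MYOF*, the highest of this list in CPM and chosen after their values were seen, were at 608 and 492 CPM in Scramble and 579 and 461 CPM in LEADR-KD and did not pass (adjusted p = 0.771 and 0.457 from edgeR).

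**Figure D3:**
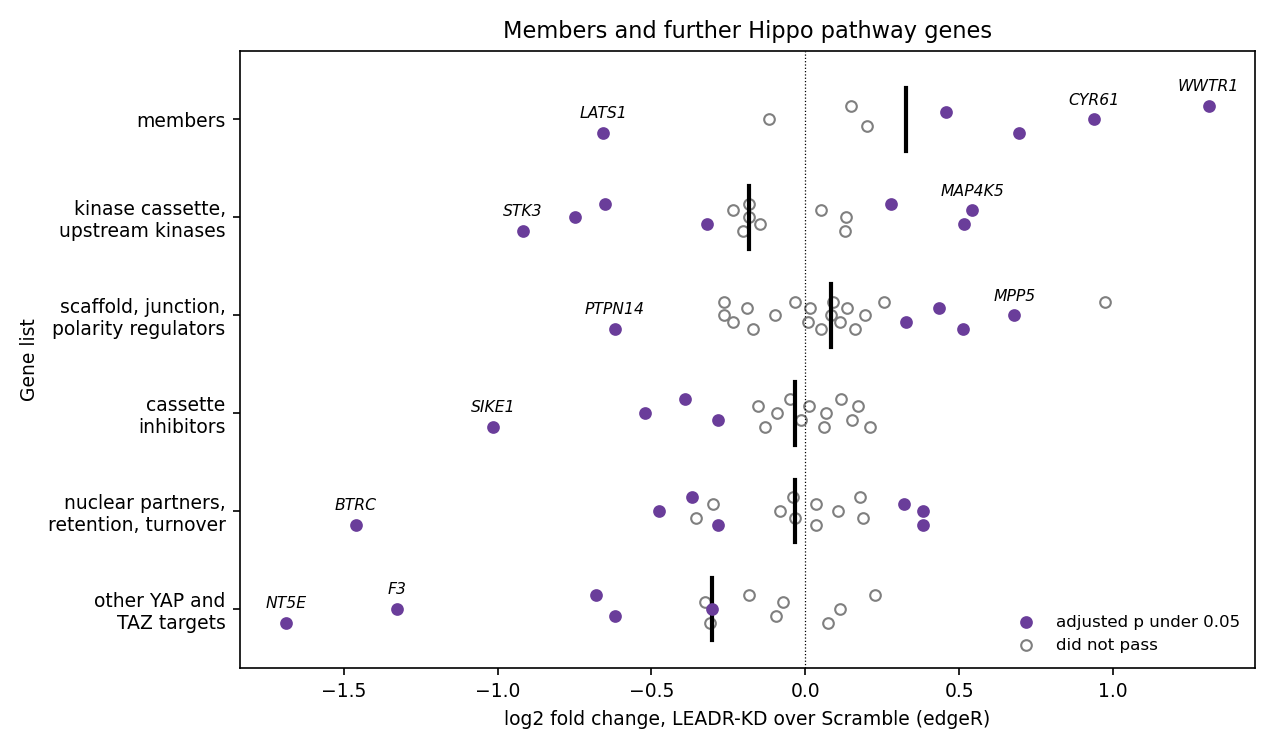
Log2 fold change (LEADR-KD over Scramble) of the 8 tested members and of the tested genes of 5 further lists, with genes past an adjusted p of 0.05 filled and the median of every list drawn as a bar. The members' median is 0.33, and that of the other YAP and TAZ targets is -0.30, with no filled point right of 0.

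The siRNA sequence was compared with the 3′ untranslated regions (UTRs) of these genes, since an siRNA can pair with unintended mRNAs through its seed, bases 2 to 8 of a strand. The strand listed by the study and its complement are shown with these bases in capitals.
listed strand: aACUGGGUgcuuuauauagga
complement: uCCUAUAUaaagcacccaguu
The matching DNA letters are ACCCAGT for the listed strand and ATATAGG for the complement. The longest annotated 3′ UTR of each gene (GENCODE, GRCh37) was read on the gene's strand. Of the 14178 tested genes, 12092 had such a UTR, and shares are given of these 12092. ACCCAGT was present in 1526 of them (12.6%), with a median log2 fold change of -0.11 and a median UTR length of 3314.5 bases. The 10566 genes without ACCCAGT had a median of 0.02 and 1362 bases. In the 312 genes (2.58%) that hold ACCCAGTA the median was -0.22.

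None of the 5 members that changed held either 7-base sequence, *LATS1* and *WWTR1* included, whose UTRs were 3576 and 3570 bases long. *TEAD1*, which did not pass, held ACCCAGTA. Of the further genes that fell, *STK3*, *SAV1*, *BTRC* and *CRIM1* held ACCCAGTA and *NT5E*, *TEAD3*, *SLMAP* and *CTTNBP2NL* held ACCCAGT, while *MOB1B*, *TAOK3*, *PTPN14*, *SIKE1*, *F3*, *AJUBA*, *ASAP1*, *YWHAG* and *YWHAZ* held neither of these. None of the genes of the 5 lists that rose held ACCCAGT. Among all 12092 genes 1695 were higher, 163 of them with ACCCAGT, and 1567 were lower, 388 of them with it. The letters of the complement, ATATAGG, were present in 1029 of the 12092 genes (8.51%). The median log2 fold change of these 1029 genes was 0.02 and their median UTR length was 3639 bases. Among them were *MOB1B*, *CRIM1* and *YWHAZ*, which fell, and *MPP5*, *STK4* and *WWC2*, which rose. The part of these sites in the changes was not tested. The sites are shown for *BTRC* and *NT5E*, which fell most among the genes that hold one, and for *TEAD1*, the only member with one, on GRCh37 with ACCCAGT in capitals.
BTRC, plus strand, chr10:103314269-103314291: tctcccacACCCAGTatttgcag
BTRC, plus strand, chr10:103314471-103314493: tcaggcaaACCCAGTcactcgga
NT5E, plus strand, chr6:86204808-86204830: tactacacACCCAGTtatggaat
TEAD1, plus strand, chr11:12961868-12961890: tggcctctACCCAGTagtaccac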

How the data were processed

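Poly(A) RNA of RT4 cells was measured in 3 Scramble and 3 LEADR-KD libraries, assigned to groups and replicates from the submitters' titles. The authors deposited whole-number counts of reads per gene. According to the submitters' processing notes the tools were HISAT2 2.0.5 with featureCounts 1.5.0-p3 and the build was hg19, while the methods name Salmon. Whether counting used strand is not given in these sources. Each deposited FPKM value is the count over gene length, scaled by a library constant. Another table holds the authors' own DESeq2 comparison (fold changes and p-values, version 1.20.0) and was not used.

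Counts were filtered by filterByExpr, scaled by TMM and tested with edgeR 4.0.16 (quasi-likelihood, no covariate, two-sided, Benjamini-Hochberg over 14178 genes) in R 4.3.3. Rose and fell mean an adjusted p below 0.05. The standard error is the log2 fold change divided by the square root of F, and intervals use it with the test's degrees of freedom. The edgeR step was tested on simulated counts. Paralog ratios used FPKM and an exact permutation test. Another planned ratio, *CTGF* to *CYR61*, could not be formed, since *CTGF* is at 0.

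The members and lists were chosen with earlier results of these data known. Named were the 10 members, *MIR205HG*, *TEAD2*, *TEAD3* and, for each list and direction, up to 3 called genes with the largest change. *PECAM1* was not analysed here. Alternatives were DESeq2 1.42.0, size factors, library totals, other filters, leaving out each library, the replicate number as a block, and limma 3.58.1 on log2(FPKM + 1) or log2(FPKM + 0.1). Tests without the libraries of high mitochondrial share, and without mitochondrial genes, were added after seeing the data.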

Additional observations from a re-analysis of the deposited data

How the results depend on the processing

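Of 36 named genes that were run under 17 alternatives none changed direction, and 18 kept their side of the threshold in all of them. *WWTR1*, *TEAD4* and *LATS1* were among these 18. *CYR61* passed in all but limma on log2(FPKM + 1) without a filter (adjusted p = 0.0655), and *AMOTL2* did not pass in 6 of 17 (0.0503 to 0.147 in these). Limma on log2(FPKM + 1) without a filter called 915 genes higher and 854 lower (main test 1736 and 1719). By list it gave 2 members higher, 2 genes of the kinase list lower, 0 scaffold genes lower and 1 inhibitor lower. It also gave 0 partner genes higher and 3 targets lower, and *MIR205HG* was at -1.16 (limma adjusted p = 0.0507). Scaling by library totals only gave 1085 genes higher (1553 lower, so that 41.1% of the calls were higher beside 50.2%), 2 scaffold genes higher and 0 partner genes higher. The median log2 fold change of all genes was then -0.06. The cause of these differences was not tested. Leaving out each library in turn gave 2 to 4 scaffold genes higher and 1 to 2 lower, 2 to 4 inhibitors lower, and 1 to 3 partner genes higher and 2 to 5 lower.

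With the replicate number as a block, 2489 genes were higher and 2365 lower, and the calls of the members were 4 higher and 1 lower as before. The block gave 7 genes of the kinase list and 4 scaffold genes lower. Deviations from the group means of same-numbered libraries correlated at 0.23, 0.00058 and 0.27 over genes. Libraries of unlike number correlated at -0.30 to 0.075. Not every library correlated best with its own number, and the numbers were not taken as pairs in the main test. Whether same-numbered libraries shared a batch was not tested. Both number 1 libraries had the high mitochondrial share. Paralog ratios within replicate numbers had an exact sign-flip permutation p = 0.25, the smallest that 3 pairs allow. Genes under about 3 counts per library, such as *CTGF*, cannot be compared at this depth.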
